A study of Mus musculus with 9 samples.

Results

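The subject of these data was a group of 10 *Serpina* genes, Serpina1a, Serpina1b, Serpina1c, Serpina1d, Serpina1e, Serpina3k, Serpina3m, Serpina3n, Serpina3g and Serpina6, which were taken by symbol from a table of 16755 genes measured by RNA-seq of mouse liver. All 10 were in the table, and all 10 had a mean over the groups of at least 1 normalized read count, as 11784 genes of the table did. Polyadenylated RNA was sequenced from 3 groups of 3 male C57BL/6 mice. Scd2f/f mice carry Scd2, a stearoyl-CoA desaturase that makes monounsaturated fatty acids, with a floxed exon, and were either untreated or given diethyl nitrosamine (DEN), a liver carcinogen, (10 mg/kg, at an age of 2 weeks) followed by Western alcohol diet (WAD), a liquid feed containing ethanol, lard and cholesterol, which according to the sample labels began at 6 weeks and lasted 4 months. Scd2f/f;Col1a1-Cre mice (Scd2f/f;CC) received the same DEN and WAD and carry in addition Cre recombinase under control of the Col1a1 promoter, which is active in activated hepatic stellate cells and portal fibroblasts and not in the hepatocytes that make most of these serpins. The floxed allele was common to all 3 groups, and no group carried Cre without DEN and WAD. The labels call the tissue liver, and the study names the treated tissue as tumor-adjacent liver in its results and as NTL in its sequencing methods. The study's methods give a longer time on WAD than the labels do. The labels repeat the treatment text for the untreated mice and give these no age of their own.

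Serpins are protease inhibitors that work as bait. A target protease cuts an exposed loop near the end of the protein, the reactive centre loop, and the serpin then snaps into a new shape and traps the enzyme. Clade A holds many of the serpins that hepatocytes secrete into plasma. Serpina1 encodes alpha-1-antitrypsin, which restrains neutrophil elastase in humans, and it has been duplicated in the mouse into near-identical paralogs. The Serpina3 group is the expanded mouse counterpart of human alpha-1-antichymotrypsin. Serpina3n is an acute phase protein that inhibits granzyme B, Serpina3k is also known as kallikrein-binding protein or contrapsin, and Serpina3g is an intracellular serpin of leukocytes also known as Spi2A. Serpina6 encodes corticosteroid-binding globulin, which carries glucocorticoids in blood and inhibits no protease.

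The Serpina1 paralogs are shown first by sequence, since how far they differ decides how far their reads can be told apart. In GENCODE M21 on GRCm38 each had a coding sequence of 1239 bases, and each pair was identical at 96.3 to 98.5% of coding positions and 92.7 to 97.3% of residues. The 5 coding sequences differed at 86 positions, which is 6.94% of the length. Of these, 16 fell in a single stretch of 45 bases in exon 5 of 5, the stretch with the most differences, and the next best stretch of that length held 12. The stretch ended 27 codons before the stop codon, and it codes for part of the reactive centre loop. Positions at which the 5 paralogs differ are in capitals below, in the coding direction, which is the minus strand.
Serpina1a: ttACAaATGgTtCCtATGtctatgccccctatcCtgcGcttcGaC
Serpina1b: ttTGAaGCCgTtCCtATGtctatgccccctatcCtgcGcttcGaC
Serpina1c: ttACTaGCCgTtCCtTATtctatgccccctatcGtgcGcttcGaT
Serpina1d: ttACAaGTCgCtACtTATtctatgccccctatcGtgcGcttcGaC
Serpina1e: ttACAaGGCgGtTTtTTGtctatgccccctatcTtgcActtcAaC
The stretches lay at chr12:103853759-103853803 in Serpina1a, chr12:103728326-103728370 in Serpina1b, chr12:103895096-103895140 in Serpina1c, chr12:103763764-103763808 in Serpina1d and chr12:103947102-103947146 in Serpina1e. A run of 15 bases without a difference stood in the middle of each. The codon just before that run was ATG in Serpina1a and Serpina1b, TAT in Serpina1c and Serpina1d, and TTG in Serpina1e. Thus the paralogs were most unlike where a serpin meets its protease, and Serpina1e had a codon there that no other paralog had.

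The other genes were less alike. The 4 Serpina3 genes were identical to each other at 82.7 to 92.6% of coding positions, and the closest pair was Serpina3k and Serpina3m. Serpina1 and Serpina3 genes shared 65.0 to 70.2%, and Serpina6 shared 62.3 to 68.8% with the others. The principal transcript of Serpina3g codes for 248 residues, against 418 for Serpina3k, Serpina3m and Serpina3n, 413 for each Serpina1 paralog and 397 for Serpina6.

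All 10 genes lie on chromosome 12 in GRCm38, and the principal transcript of each has 5 exons, of which 4 are coding. On the minus strand, Serpina6 lies at chr12:103646630-103657212, Serpina1b at chr12:103728156-103830373, Serpina1d at chr12:103763594-103773592, Serpina1a at chr12:103853589-103863562, Serpina1c at chr12:103894926-103904887 and Serpina1e at chr12:103946931-103958975. On the plus strand, Serpina3g lies at chr12:104236245-104241939, Serpina3k at chr12:104338486-104346144, Serpina3m at chr12:104338486-104394257 and Serpina3n at chr12:104406729-104414329. The annotated span of Serpina1b contains Serpina1d without a shared exon, and that of Serpina3m contains Serpina3k with 1 exon in common, so reads of that exon belong to either gene.

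Promoters are shown for 3 genes. Serpina1b and Serpina1e were taken because their aligned promoter bases are the most alike, yet the genes differed in the values below. Serpina3g was taken because it was the member with the largest ratio upward. The sequences are the 250 bases before the RefSeq start of transcription (GRCm38.p6), which the table used here holds for 7 of the 10 genes, those other than Serpina3k, Serpina3m and Serpina6. Capitals mark matches, on either strand, to the motif GTTAAT, a C/EBP motif (TTNNGCAA), a STAT motif (TTCNNNGAA) and the TATA box (TATAAA). No match overlapped another in the promoters shown.
Serpina1b: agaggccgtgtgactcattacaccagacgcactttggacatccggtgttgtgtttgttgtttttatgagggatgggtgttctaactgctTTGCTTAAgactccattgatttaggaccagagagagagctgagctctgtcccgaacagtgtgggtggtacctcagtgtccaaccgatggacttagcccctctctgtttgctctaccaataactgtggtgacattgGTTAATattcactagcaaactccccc
Serpina1e: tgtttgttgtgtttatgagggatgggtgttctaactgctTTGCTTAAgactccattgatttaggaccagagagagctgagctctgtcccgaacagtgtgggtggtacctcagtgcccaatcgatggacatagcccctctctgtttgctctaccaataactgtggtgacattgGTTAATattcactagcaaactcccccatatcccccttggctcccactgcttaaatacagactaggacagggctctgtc
Serpina3g: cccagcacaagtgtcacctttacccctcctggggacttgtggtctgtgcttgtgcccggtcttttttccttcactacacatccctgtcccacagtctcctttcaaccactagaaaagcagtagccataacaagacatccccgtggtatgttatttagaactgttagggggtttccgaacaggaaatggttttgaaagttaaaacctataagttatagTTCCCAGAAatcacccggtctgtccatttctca
They lie at chr12:103738190-103738439 and chr12:103956898-103957147 on the minus strand and chr12:104235897-104236146 on the plus strand. Aligned bases of the promoters of Serpina1b and Serpina1e were 98.0% identical, and pairs of Serpina1 promoters 92.1 to 98.0%. All 5 Serpina1 promoters held GTTAAT once, as 6.43% of 32851 mouse promoters of the same length did, and since the 5 are copies they do not count as separate cases. It lay 26 bases before the start in Serpina1b and 78 bases before it in Serpina1e, whose annotated start lies further downstream. The last bases shown for Serpina1e therefore had no counterpart in the stretch shown for Serpina1b. The C/EBP motif, present in 9.56% of promoters, had 1 match each in Serpina1b, Serpina1d and Serpina1e. The STAT motif, present in 7.02%, was matched in Serpina3g 33 bases before the start and in no other of the 7 promoters. TATAAA, present in 12.4%, was matched in none of the 7, and Serpina3n held none of the 4 motifs. These matches describe letters and were not tested for binding.

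The values are 1 mean per group, which the authors computed by least squares from read counts normalized to the upper quartile and printed with 3 significant digits. Values of single mice and read depths were not analysed here, so no mean has an error, no difference was tested, and whether groups overlap is not known. Rounding to 3 digits moves no log2 ratio of a member by more than 0.0114. Because each comparison is a ratio of 2 of the same 3 means, both main comparisons share the mean of Scd2f/f mice given DEN and WAD. A gene was counted as higher or lower when the ratio of its means was at least 2, and the share of all 11784 genes past that limit is given beside the counts of members.

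Per kilobase of coding sequence, Serpina3k had the highest level of the 10 genes in each group, with 6108 normalized counts in untreated Scd2f/f liver, 3469 in Scd2f/f liver after DEN and WAD and 4490 in Scd2f/f;CC liver. Serpina1e was next in untreated liver with 3220 per kilobase, followed by Serpina1c with 2454, Serpina1b with 1776, Serpina1a with 1533 and Serpina1d with 1057. After DEN and WAD, Serpina1e had the lowest level of the 5 paralogs in Scd2f/f liver, with 633 per kilobase below the 777 of Serpina1d. In Scd2f/f;CC liver, Serpina1e was at 1283 and Serpina1a at 1267, an order that turned per kilobase of transcript, where they were at 1010 and 1154. The remaining genes were far below these, and in untreated liver they ran from Serpina3m with 190 per kilobase through Serpina3n with 139 and Serpina6 with 51.1 to Serpina3g with 3.27. Whether neighbours in this order differ beyond the spread of mice cannot be said from means alone. Values from here on are group means per gene, not per length.

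**Figure D1:**
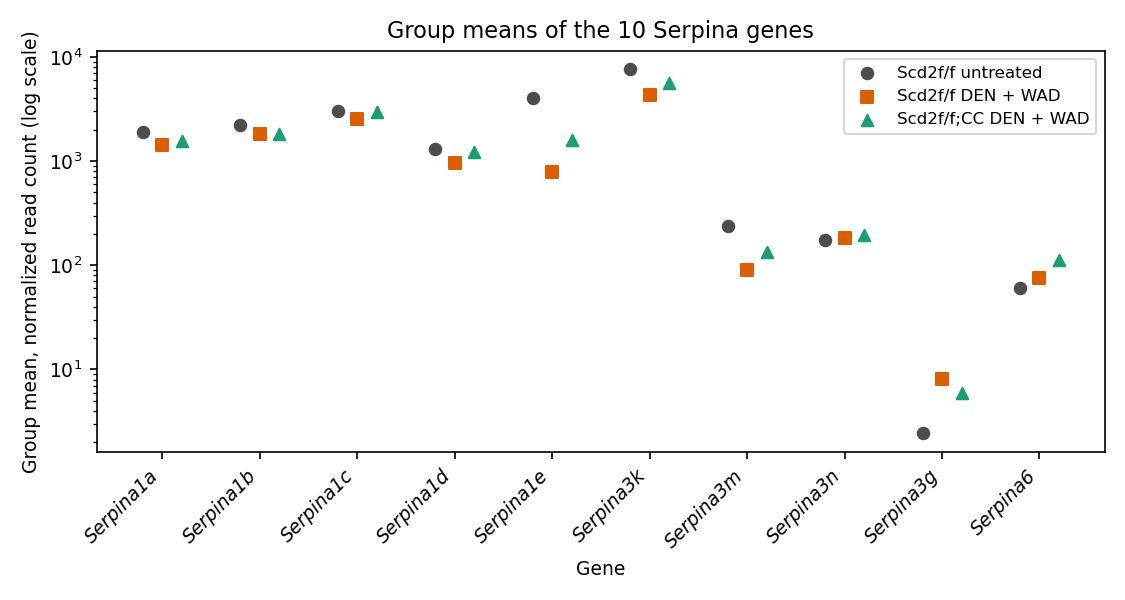
Group means of the 10 genes in normalized read counts on a log axis, for untreated Scd2f/f liver (circles), Scd2f/f liver after DEN and WAD (squares) and Scd2f/f;CC liver after DEN and WAD (triangles), with no error since 1 mean per group was used. Serpina1e stands apart among the Serpina1 paralogs, at 3990 without treatment and 784 with it, while Serpina3g is the lowest of the 10 in all 3 groups.

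The first comparison was of DEN and WAD with no treatment in Scd2f/f mice. Of the 10 genes, 2 were at least 2-fold lower, Serpina1e and Serpina3m, and 1 was at least 2-fold higher, Serpina3g. Over all genes 2.89% were at least 2-fold lower and 6.4% at least 2-fold higher. Among the 655 genes whose mean reached 100, these shares were 4.73% and 2.75%. At a limit of 1.5-fold, 3 members were lower, with Serpina3k added, against 8.59% of all genes, and 1 was higher against 12.8%. The median log2 ratio was -0.35 for the 10 genes and 0.03 for all genes, and 7 members had lower and 3 higher means after treatment, whereas 46.7% of all genes had lower means. The 6 members with the highest levels, the 5 Serpina1 paralogs and Serpina3k, all had lower means, to very unequal degrees. When the groups were scaled to the same sum over all genes, 5 members had lower and 5 higher means, since Serpina1b and Serpina1c changed sign.

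Among the Serpina1 paralogs the difference centred on Serpina1e. Its mean was 3990 in untreated liver and 784 after DEN and WAD, which is 5.09-fold lower (log2 ratio -2.35), and only 51 of the 11784 genes (0.433%) had a lower ratio. Of the 655 genes whose mean reached 100, 3 had a lower ratio. Serpina1a had means of 1900 and 1420 (log2 ratio -0.42). Serpina1d had means of 1310 and 963 (log2 ratio -0.44). Neither came near a 2-fold difference. Serpina1b was at 2200 and 1810 (log2 ratio -0.28) and Serpina1c at 3040 and 2510 (log2 ratio -0.28), and both ratios turned to 0.04 when the groups were scaled to the same sum over all genes. Serpina1b, whose promoter is closest to that of Serpina1e over the bases that aligned, differed 1.22-fold between groups where Serpina1e differed 5.09-fold. The part of promoter sequence in this was not tested.

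The sum over the 5 paralogs, which does not depend on how shared reads were divided among them, was 12440 in untreated liver and 7487 after treatment (log2 ratio -0.73, 1.66-fold lower). Without Serpina1e the sum was 8450 and 6703 (log2 ratio -0.33). The difference of the Serpina1e means was -3206 normalized counts. Its share of the Serpina1 sum was 32.1% in untreated liver and 10.5% after DEN and WAD, while the share of Serpina1c was 24.4% and 33.5%.

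**Figure D2:**
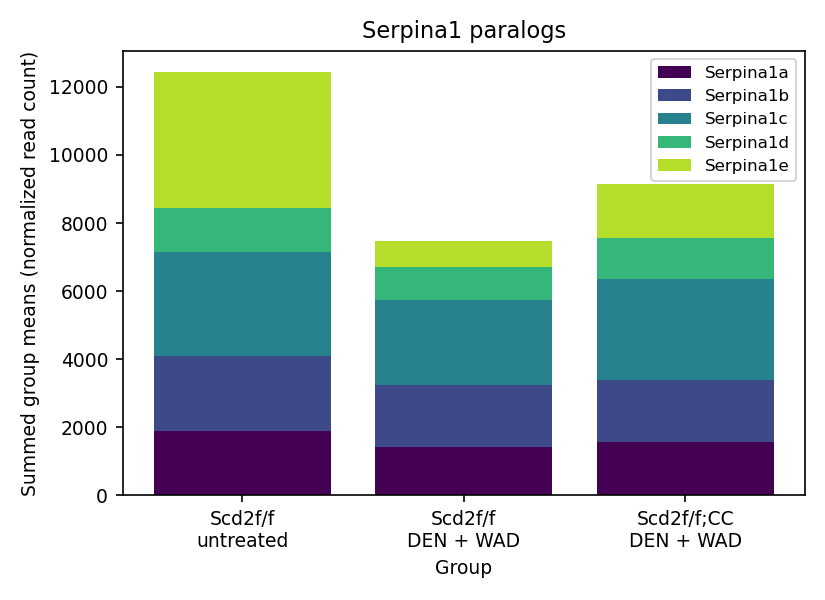
Group means of Serpina1a to Serpina1e in normalized read counts, stacked from bottom to top, in the 3 groups. The stack reaches 12440 in untreated Scd2f/f liver, 7487 in Scd2f/f liver after DEN and WAD and 9160 in Scd2f/f;CC liver, and the Serpina1e segment at the top is the part that differs most.

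How well reads identify a paralog differed between the genes. Of all 50-base stretches of its coding sequence, 83.9% also occur in a transcript of another gene for Serpina1a, 75.6% for Serpina1c, 54.3% for Serpina1d and 47.1% for Serpina1b. Serpina1e had the lowest value of the 5 paralogs, 39.0%. At 75 bases these shares were 73.6, 70.0, 41.5, 35.8 and 25.4%, in the same order. The other genes that share such stretches are the remaining paralogs and a pseudogene, Gm8893, whose own means were 12.6, 6.75 and 6.21 in untreated, Scd2f/f and Scd2f/f;CC liver. The authors' counting method divides shared reads among genes by estimation, so the split between Serpina1a and Serpina1c is the least sure. Reads of single paralogs were not examined, and the part of this division in the Serpina1e values was not tested.

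**Figure D3:**
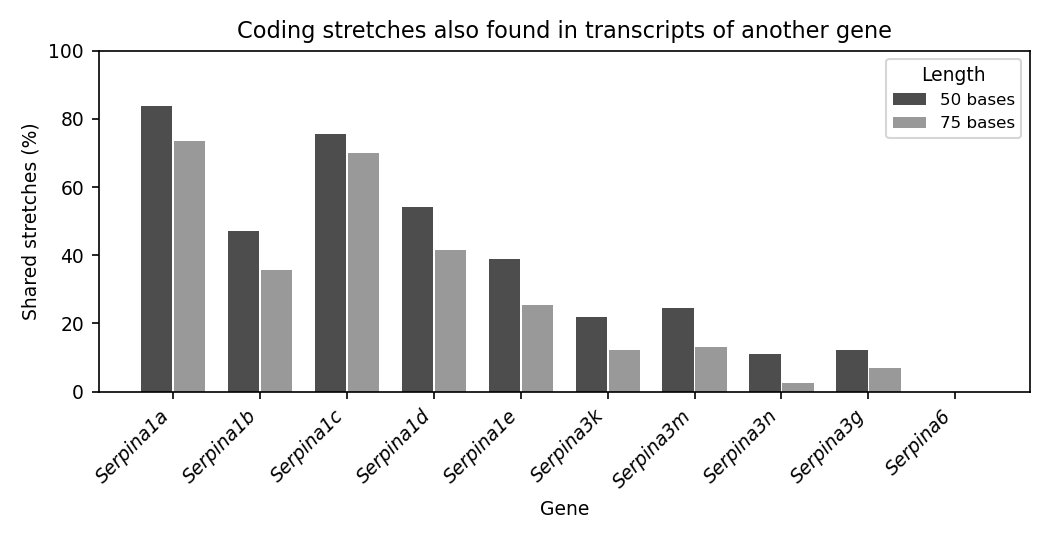
Share of all stretches of 50 bases (dark) and 75 bases (light) of each coding sequence that also occur in a transcript of another gene, in percent. The 5 Serpina1 paralogs have the highest shares, from 83.9% in Serpina1a to 39.0% in Serpina1e at 50 bases, and Serpina6 has none.

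In the Serpina3 group, Serpina3k and Serpina3m were lower after DEN and WAD. Serpina3k had a mean of 7660 in untreated and 4350 in treated Scd2f/f liver, 1.76-fold lower (log2 ratio -0.82). Serpina3m was at 238 and 89.4, 2.66-fold lower (log2 ratio -1.41). Since both share an exon, their sum is the safer value, and it was 7898 and 4439 (log2 ratio -0.83). The acute phase gene Serpina3n was nearly level, at 174 and 184 (log2 ratio 0.08). Serpina3g, the leukocyte serpin, was higher after treatment at 8.12 against 2.43, 3.34-fold (log2 ratio 1.74), at a level of a few normalized counts, and with 1 added to each mean its log2 ratio was 1.41. Serpina6 was at 60.9 in untreated and 75 in treated liver (log2 ratio 0.30).

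Hepatocyte markers stayed under 2-fold in this comparison. Albumin (Alb) was at 21300 and 20900, the summed mean of 11 hepatocyte markers was 50438 and 49938, and 0 of the 11 were past 2-fold in either direction, the furthest being the apolipoprotein gene Apoa1 at 4730 and 2890. Macrophage markers had higher means. Their sum was 77.4 and 270 and 6 of 6 were at least 2-fold higher, against 6.4% of all genes, led by Cd68 at 1.64 and 8.87. Of neutrophil markers, 2 of the 2 with a mean of at least 1 were higher, S100a9 at 0.355 and 1.94 and Csf3r at 0.477 and 1.46, and the list summed to 1.18 and 4.74. These lists had higher means as Serpina3g did, and their part in its value was not tested. T and NK cell markers summed to 0.921 and 3.58 and B cell markers to 0.877 and 1.71, with each gene under a mean of 1. No mean in the table was 0. In bulk liver, fewer cells of a type and less RNA per cell cannot be told apart.

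The second comparison was of Scd2f/f;CC with Scd2f/f mice, both after DEN and WAD. The targeted gene Scd2 had means of 2.46 in untreated, 6.47 in treated Scd2f/f and 1.87 in Scd2f/f;CC liver, and Col1a1, whose promoter drives the Cre, was at 4.69, 19.6 and 4.51. Of the 10 serpins, 1 was at least 2-fold higher in Scd2f/f;CC, Serpina1e, and 0 were at least 2-fold lower, against 0.645% and 1.54% of all genes. Among the 655 genes whose mean reached 100, the shares were 1.68% and 0.305%. No test was run on these means. At a limit of 1.5-fold, Serpina1e, Serpina3m and Serpina6 were higher and 0 were lower, against 2.35% and 4.87% of all genes. The median log2 ratio of the 10 genes was 0.29, against 0.006 for all genes and 0.09 for the 655 genes whose mean reached 100, as it did for most members. Of the members, 9 of 10 had a higher mean in Scd2f/f;CC and 1 a lower one, whereas 48.4% of all genes and 32.2% of those 655 genes had a lower mean. The 9 became 6 when the groups were scaled to the same sum over all genes and 7 when they were scaled to the same hepatocyte markers.

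Serpina1e had a mean of 1590 in Scd2f/f;CC against 784 in Scd2f/f liver, 2.03-fold higher (log2 ratio 1.02), above 99.4% of all genes. The ratio lay just past the limit, and it was 0.85 and 0.89 on the log2 scale after scaling to the same sum and to the same hepatocyte markers. It was under the mean without treatment, 3990. Serpina1d was at 1220 against 963 (log2 ratio 0.34), Serpina1c at 2950 against 2510 (log2 ratio 0.23) and Serpina1a at 1570 against 1420 (log2 ratio 0.14). Serpina1b was level at 1830 and 1810 (log2 ratio 0.02). Scaling to the same sum turned the ratios of Serpina1a and Serpina1b to -0.02 and -0.15. The Serpina1 sum was 9160 in Scd2f/f;CC and 7487 in Scd2f/f liver (log2 ratio 0.29), and the share of Serpina1e in it was 17.4% and 10.5%.

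Serpina3k had means of 5630 in Scd2f/f;CC and 4350 in Scd2f/f liver (log2 ratio 0.37), and Serpina3m had means of 135 and 89.4, 1.51-fold higher (log2 ratio 0.59). Serpina6 was at 113 in Scd2f/f;CC and 75 in Scd2f/f liver, 1.51-fold higher (log2 ratio 0.59), so that this carrier of glucocorticoids had its highest mean in Scd2f/f;CC. Serpina3n was level at 194 and 184 (log2 ratio 0.08), or -0.09 after scaling to the same sum. Serpina3g was the 1 gene of the 10 with a lower mean as deposited, at 5.90 against 8.12 (log2 ratio -0.46).

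**Figure D4:**
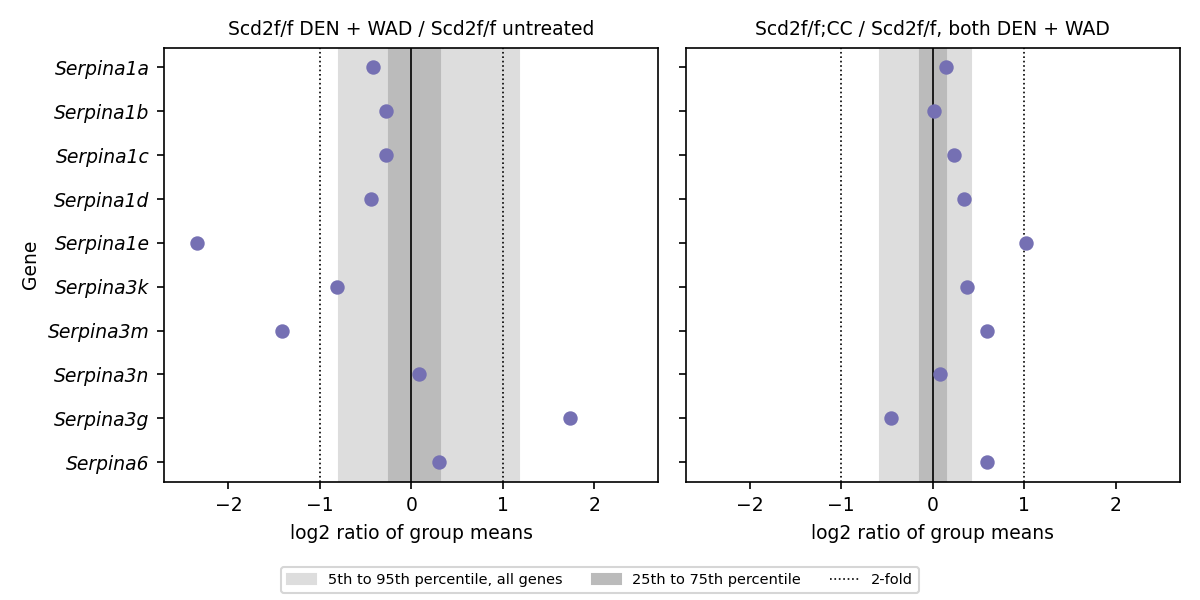
Log2 ratios of group means of the 10 genes for DEN and WAD against no treatment in Scd2f/f mice (left) and for Scd2f/f;CC against Scd2f/f mice after DEN and WAD (right). Shading gives the middle of 11784 genes and dotted lines mark 2-fold. Serpina1e lies at -2.35 on the left and 1.02 on the right, and Serpina3g lies on the other side of 0 from it in both.

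Of the non-parenchymal lists, those of stellate cells and fibroblasts, cholangiocytes, and T and NK cells differed most between the genotypes. Endothelial and B cell markers differed little in their sums. Markers of stellate cells and fibroblasts summed to 128 in untreated, 251 in treated Scd2f/f and 123 in Scd2f/f;CC liver. Cholangiocyte markers summed to 58.7, 53.1 and 19.1, and most of this was Spp1, at 52.3, 45.1 and 14.8. Epcam was at 1.82 in treated Scd2f/f and 0.50 in Scd2f/f;CC liver. Sox9 was at 3 without and 5.03 with treatment in Scd2f/f mice. The means of Epcam, Krt7 and Spp1 were lower with treatment there, and Krt19 was level. Macrophage markers were at 214 in Scd2f/f;CC against 270 in Scd2f/f. Of these, 1 of 6 was at least 2-fold lower, Cd14 at 1.41 against 3.26, where 1.54% of all genes were. Lyz2 was at 63.7 against 107 and Cd68 at 5.66 against 8.87. Adgre1, Clec4f and Csf1r were closer to level. Neutrophil markers were at 3.68 against 4.74. T and NK cell markers were at 1.76 against 3.58 and B cell markers at 1.87 against 1.71. Endothelial markers summed to 91.5, 115 and 118 in untreated, Scd2f/f and Scd2f/f;CC liver, with Lyve1 at 2.60, 6.60 and 3.44. Stab2 and Kdr had higher means in Scd2f/f;CC than in treated Scd2f/f liver. Pecam1 and Clec4g had slightly lower ones. Hepatocyte markers summed to 54794 in Scd2f/f;CC against 49938 in Scd2f/f (log2 ratio 0.13), and 0 of 11 were past 2-fold, with Cyp3a11 furthest at 1830 against 2580. The part of these differences in the serpin values was not tested.

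Scd2f/f;CC liver after DEN and WAD was also set beside untreated Scd2f/f liver, a pair that differs in both genotype and treatment. Serpina1e was 2.51-fold lower (log2 ratio -1.33) and Serpina3g 2.43-fold higher (log2 ratio 1.28), the 1 member past 2-fold in each direction, against 2.55% and 4.51% of all genes. Serpina6 was 1.86-fold higher (log2 ratio 0.89), with means of 113 and 60.9. Serpina3m was 1.76-fold lower (log2 ratio -0.82) and Serpina3k 1.36-fold lower (log2 ratio -0.44). Serpina1a and Serpina1b had log2 ratios of -0.28 and -0.27. Serpina3n was at 0.16, and Serpina1c and Serpina1d were at -0.04 and -0.10, which turned to 0.11 and 0.05 after scaling to the same sum. The Serpina1 sum of 9160 was below the 12440 of untreated liver (log2 ratio -0.44). All 10 genes together took up 2.51% of the summed means of all genes in untreated liver, 1.85% in treated Scd2f/f liver and 2.06% in Scd2f/f;CC liver.

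The chromosomal neighbours were read in order of position. The table holds 19 Serpina genes of chromosome 12, within 799.544 kb, and 16 of them had a mean of at least 1. Of the 16, 12 had lower and 4 higher means after DEN and WAD in Scd2f/f mice, and 13 were higher and 3 lower in Scd2f/f;CC than in Scd2f/f mice after treatment, where 46.7% and then 48.4% of all genes had lower means. These counts include the 10 members. Of the 6 neighbours alone, 5 were lower and 1 higher after DEN and WAD, and 4 were higher and 2 lower in Scd2f/f;CC. Serpina4-ps1, a pseudogene, was at 48.9 in untreated, 12.4 in treated Scd2f/f and 9.21 in Scd2f/f;CC liver. Serpina9 was at 2.00, 0.356 and 0.768, which is 5.62-fold lower and then 2.16-fold higher, at a very low level. Serpina10, the inhibitor of factor X known as protein Z-dependent protease inhibitor, was at 150, 90.2 and 90.6. Serpina12, the adipokine vaspin, was at 57.1, 37.3 and 41.7, and Serpina11 at 28.6, 23.2 and 26.1. Thus Serpina1e and the very low Serpina9 lay at comparable ratios. Serpina11, between them on the chromosome, differed less, with log2 ratios of -0.30 and 0.17.

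Serpina3f, next to Serpina3g, had means of 1.24, 4.41 and 3.39, so that it was 3.56-fold higher after DEN and WAD where Serpina3g was 3.34-fold higher. Both are low, and Serpina3k and Serpina3m in the same group of genes were lower. Serpina7, thyroxine-binding globulin, lies on the X chromosome and was at 67.3, 93.6 and 39.8, 2.35-fold lower in Scd2f/f;CC. Agt, which encodes angiotensinogen and is a clade A serpin outside the cluster, was at 160, 218 and 280. Of the 8 such further clade A genes whose mean reached 1, 1 was at least 2-fold higher and 2 lower after DEN and WAD, with a median log2 ratio of -0.46, against 6.4% and 2.89% of all genes. In Scd2f/f;CC 1 was higher and 1 lower, with a median of 0.08, against 0.645% and 1.54%.

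**Figure D5:**
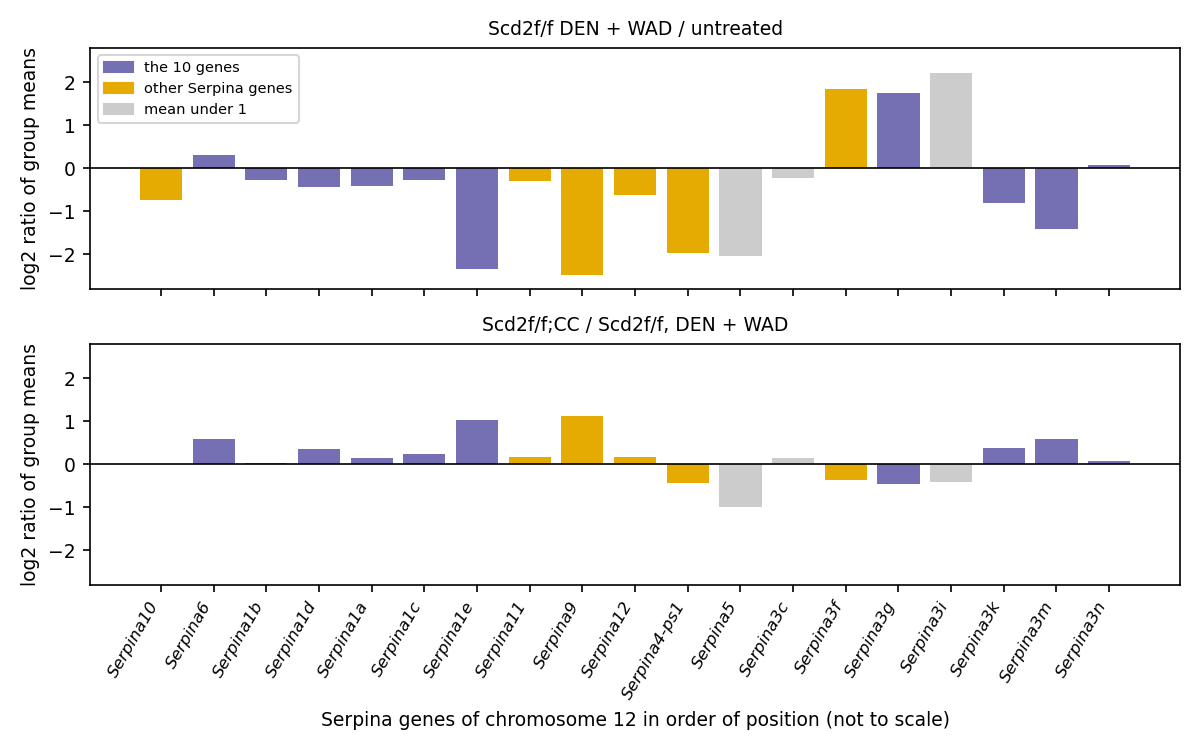
Log2 ratios of group means of the 19 Serpina genes of chromosome 12 in order of position, for DEN and WAD against no treatment in Scd2f/f mice (top) and Scd2f/f;CC against Scd2f/f mice after DEN and WAD (bottom), with genes under a mean of 1 in grey. Serpina3f and Serpina3g are high in the top panel while 12 of the 16 genes whose mean reached 1 lie below 0.

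Other serpins, the proteases that serpins act on and the regulators of these genes were read as lists, each given by the number of its genes with a mean of at least 1 that passed 2-fold and by its median log2 ratio. The median over all genes was 0.03 for DEN and WAD and 0.006 for Scd2f/f;CC. For 7 other plasma serpins, the medians were 0.14 and 0.19. Of 6 intracellular serpins, Serpinb6b was higher after DEN and WAD at 3.86 against 1.58, and Serpinb1a, an inhibitor of neutrophil serine proteases, was higher in Scd2f/f;CC at 4.35 against 1.97, with list medians of 0.25 and -0.19. Of 6 serine proteases, Cela1, a chymotrypsin-like elastase that alpha-1-antitrypsin inhibits, was at 15.4, 3.40 and 6.87, which is 4.53-fold lower after DEN and WAD and 2.02-fold higher in Scd2f/f;CC. The medians of the proteases were 0.03 and 0.20. Elane, which encodes neutrophil elastase, was in the planned list and was not among the 16755 genes.

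Glucocorticoid genes were read beside Serpina6. Of 11 genes, 2 were at least 2-fold lower after DEN and WAD and 0 higher (median log2 ratio -0.33), against 2.89% and 6.4% of all genes. The 2 were Fkbp5, a co-chaperone induced by glucocorticoids, at 39.5 and 10.8, and Tat, tyrosine aminotransferase, at 499 and 181. None passed 2-fold in Scd2f/f;CC (median 0.14), where Fkbp5 was at 10.2 and Tat at 305. The largest ratio there was that of Hsd11b1, which regenerates active glucocorticoid, at 294 against 166 (log2 ratio 0.82). Nr3c1, the glucocorticoid receptor, was at 66.5, 67.0 and 73.8.

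The median of 13 hepatic and cytokine regulators was 0.15 after DEN and WAD. Socs3, a feedback inhibitor of cytokine signalling, was at 6.44 without and 16.2 with treatment, and Irf1, a transcription factor of the interferon response, was at 9.07 and 20.3, both at least 2-fold higher. Socs3 was 3.44-fold lower in Scd2f/f;CC at 4.71, the 1 gene of the list past 2-fold there (median -0.19). Cebpa, which encodes a C/EBP factor, was at 140, 142 and 136, and Cebpb at 79.5, 66.2 and 49.9. Neither of these factors was past 2-fold in either main comparison.

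Of 16 acute phase proteins, 6 were at least 2-fold higher after DEN and WAD and 0 lower (median 0.32), against 6.4% and 2.89% of all genes. In Scd2f/f;CC 2 were at least 2-fold lower with 0 higher (median -0.14), against 1.54% and 0.645% of all genes. Lcn2, lipocalin, was at 5.21, 41.8 and 14.1, and Orm2, an orosomucoid, was at 5.83, 32.0 and 12.3. Haptoglobin (Hp), among the abundant acute phase proteins, was at 949, 1230 and 1120. Serpina3n, counted as an acute phase gene in the mouse, was at 174, 184 and 194 and did not share the ratios of Lcn2 or Orm2. It was not alone in this. Hpx, at 2040, 2180 and 2210, and Fgb, at 1700, 1670 and 1720, were also nearly level.

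The genes whose pair of log2 ratios lay nearest to that of Serpina1e were sought among 5584 genes whose mean reached 10, by the Euclidean distance over both main comparisons. None lay within 0.25. The nearest was Noct, nocturnin, at 0.268, with means of 27.4, 5.15 and 8.72. Next were Rnu3b1 and Rnu3b3, copies of the U3 small nucleolar RNA gene, which the table lists with the same means of 57.1, 13.4 and 25.7. By contrast, 198 of 5580 genes lay within 0.25 of the Serpina1 sum. The nearest were 2210418O10Rik, with means of 14.1, 8.47 and 10.3, Mrps16, which encodes a protein of the mitochondrial ribosome, with 13.5, 8.24 and 9.90, and Gm3244, with 42.9, 26.4 and 31.9. As both comparisons share a mean, these distances are a description.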

How the data were processed

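The authors sequenced polyadenylated RNA (TruSeq v2, NextSeq) from 3 mice per group and, with Partek, assigned reads to Gencode M3 genes by an E/M method, normalized counts to the upper quartile and fitted Gene Specific Analysis. The submitters' processing notes name STAR 2.6.1, Partek 6 and mm10. The deposited signal of a gene is the least-squares mean of normalized counts in a group. The table has 16755 genes and 18 columns and gives the mean of treated Scd2f/f mice in 2 copies, which differed for 0 genes. The 8 columns of the authors' own comparisons (p-value, FDR, ratio and fold change for each of 2 comparisons) were not used.

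From the 3 means, log2 ratios were computed with no pseudocount in 3 comparisons. The limit was 2-fold, and the background was the 11784 genes with a mean over the groups of at least 1. With 1 mean per group used, no test was possible. Depth per sample is unknown, so no interval is given. The 10 genes and the 15 lists (136 genes) were chosen with earlier results of these data known. Named are the 10 genes, further clade A genes with a mean of at least 1, in each list the gene with the largest ratio in each main comparison, Scd2, Col1a1 and Alb, and the 3 genes nearest to Serpina1e and to the Serpina1 sum. Irf1, Tat, Orm2, Hp, Hpx, Fgb, Nr3c1, Cebpa, Cebpb and Gm8893 were added after their values were seen. So were Krt7, Krt19, Spp1, Stab2, Kdr, Pecam1, Clec4g, Lyz2, Adgre1, Clec4f, Csf1r and the other genes named in the closing observations. Some items of the analysis are not reported here. Levels per length used the coding length of the principal GENCODE M21 transcript, in place of the RefSeq protein length that had been planned. File starts matched this annotation on GRCm38. Coding and protein sequences were aligned globally with Biopython 1.88, and promoters were taken from RefSeq on GRCm38.p6. The counting of genes past 2-fold, the scaling of groups and the sign of ratios were tested on simulated group means. The other steps were not tested in this way. Alternatives were a limit of 1.5-fold, a pseudocount of 1, centring on the median, scaling to the same sum over all genes or over hepatocyte markers, other filters on the mean, and sums without 1 paralog. Python 3.11.15, NumPy 2.4.6, pandas 2.3.3 and Matplotlib 3.10.9 were used.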

Additional observations from a re-analysis of the deposited data

How the results depend on the processing

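No paired analysis was possible because only 1 mean per group was used and no result comes from a test. Leaving out single mice was not possible for the same reason. Values within 0.1 log2 of the reported ratio, and counts within 1.5 times, were taken as unchanged. Of the 134 alternatives for single genes and for shares of all genes, 72 were unchanged, and of the 42 for counts of members and for the Serpina1 sum, 26 were. No ratio past 2-fold changed sign. For DEN and WAD against no treatment, the log2 ratio of the Serpina1 sum was -0.92 without Serpina1c, -0.33 without Serpina1e and -0.41 with means scaled to the same sum over all genes. For Scd2f/f;CC against Scd2f/f mice, it was 0.18 without Serpina1e, 0.12 scaled to the same sum and 0.16 scaled to the same hepatocyte markers, and the count of members at least 2-fold higher was 3 at a limit of 1.5-fold, 0 scaled to the same sum and 0 scaled to the hepatocyte markers. For Scd2f/f;CC against untreated Scd2f/f mice, the sum gave -0.60 without Serpina1c, -0.16 without Serpina1e, -0.29 scaled to the same sum and -0.56 scaled to the hepatocyte markers, and the count of members was 2 higher and 2 lower at 1.5-fold and 2 higher scaled to the same sum. Scaling to the same sum moved the median log2 ratio of all genes by 0.32 for DEN and WAD and by -0.17 for Scd2f/f;CC, and left 10.5% of all genes at least 2-fold higher and 1.75% lower after DEN and WAD. The sums without Serpina1e and the scaled sums were chosen after seeing the data. Serpina1e, Serpina3m and Serpina3g stayed past 2-fold for DEN and WAD under all scalings and the pseudocount of 1. Ranks of levels in untreated liver were the same without a correction for length, and with transcript length 2 genes changed rank there, 2 in treated Scd2f/f and 3 in Scd2f/f;CC liver. Without a filter on the mean, 9.37% of all genes were at least 2-fold higher and 4.69% lower after DEN and WAD, and 1.82% and 4.07% in Scd2f/f;CC against Scd2f/f mice. Depth and the spread between mice limit every value and are unknown.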

Other observations

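An antisense gene, B430119L08Rik, lies among the Serpina genes of chromosome 12, and its means were 23.3 in untreated Scd2f/f, 18.7 in treated Scd2f/f and 21.9 in Scd2f/f;CC liver. The 3 acute phase genes with the largest ratios after DEN and WAD besides Lcn2 were Orm3 at 1.22 and 8.05, Saa2 at 8.95 and 56.4, and Orm2, which the report gives. Saa1 was at 47.0 and 112 and Saa3 at 4.97 and 16.2, while Orm1, the most abundant orosomucoid of the table, was at 328 and 253. In Scd2f/f;CC liver, Orm3 was at 6.77, Saa2 at 33.5, Saa1 at 77.6, Saa3 at 13.0 and Orm1 at 226. Further genes that respond to glucocorticoids were read in untreated, treated Scd2f/f and Scd2f/f;CC liver, in that order. Tsc22d3 had means of 44.2, 23.7 and 30.1, and Per1 had means of 17.0, 9.10 and 7.47. Sgk1 went the other way after treatment, with means of 9.11, 10.8 and 11. Pck1 was at 897, 715 and 1010. These genes were chosen after their values were seen, and none was tested.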
